A study of Mus musculus with 2 samples.

Results

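The genes described here mark lymphocytes, natural killer (NK) cells and neutrophils in the liver. They are 39 gene symbols taken by name from a list of leukocyte genes, out of 53241 distinct symbols in 53342 rows, and each symbol occurred in 1 row of both libraries. The list holds 7 B cell genes, 19 T and NK cell genes (13 T cell and 6 NK or cytotoxic genes), 6 neutrophil genes, 5 pan-leukocyte genes and 2 genes of dendritic cells and progenitors. Liver RNA was sequenced from 1 control and 1 iFIRKO sample, both from male mice injected with tamoxifen at 100 mg/kg on 5 days from 7 weeks of age and sampled 3 days after the last dose. The iFIRKO mice were Adipoq-CreERT2; *Insr* flox/flox, so that tamoxifen removes the insulin receptor from cells in which the adiponectin promoter is active, which are adipocytes. The labels call the control WT, while the methods of the study give tamoxifen-injected IR flox/flox mice. It is not given whether a library stands for 1 mouse or a pool, and with 1 library per group no difference below has a replicate check or a test.

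Values are normalized reads, returned here from the log2 scale of the files. The libraries held an estimated 42.3 M (control) and 41.3 M (iFIRKO) reads on genes. A log2 fold change is iFIRKO over control with 4.18 normalized reads added to each, and the ratio of a sum has nothing added. Brackets give 95% exact Clopper-Pearson intervals of the plain ratio on estimated read pairs, which cover counting error only. A gene was tested for a fold above 1.5 where it reached 41.8 normalized reads, a CPM of 1 by library total, in 1 or both libraries. *Insr* itself, which the model removes elsewhere, stood at 4246 and 3692 normalized reads in control and iFIRKO liver. Whole liver holds all of these cells at once, and fewer cells of a type cannot be told apart from less RNA per cell.

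B cells read antigen through surface immunoglobulin coupled to the CD79 chains, and T cells through a receptor coupled to the CD3 chains and the kinases Lck and Zap70. NK cells and cytotoxic T cells kill with granzymes and perforin, and neutrophils carry antimicrobial granules and the paired proteins S100A8 and S100A9. The liver keeps resident lymphocytes, is rich in NK cells, and holds further leukocytes in the blood of its sinusoids.

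The summed reads of the B cell, T and NK cell, neutrophil and pan-leukocyte genes were lower in the iFIRKO liver, and those of the dendritic and progenitor genes were too few to tell. The 39 genes together had 5483 normalized reads in control against 2961 in iFIRKO, a log2 ratio of -0.89 (-0.98 to -0.80). The value was lower in iFIRKO for 33 of the 39 genes and higher for 6, namely *Cd8a*, *Lck*, *Zap70*, *Klrd1*, *Ncr1* and *Siglech*, where 49.5% of the 21768 rows above 0 in 1 or both libraries were lower. The 39 genes together came to a CPM of 130.5 in control against 71.2 in iFIRKO.

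Of the 39 genes, 18 reached the minimum, and 16 of these were more than 1.5-fold lower and 0 higher, against 7.28% lower and 4.46% higher among all 13400 tested genes. The median log2 fold change was -1.02 over these 18 genes and 0.008 over all tested genes. Of the 18, 6 passed through the control library alone, which by itself makes a lower value likelier. Among the 12 that passed in both libraries, 11 were lower by this fold, against 5.57% of the 12765 genes that did so, and the remaining gene was *Zap70*. *Gzma*, at 49.7 normalized reads in its higher library, lay just inside the minimum and *Ltb*, at 41.7, just outside it. A fold is given below for the 34 genes above 3 read pairs in both libraries. The interval lay wholly below 0 for 19 of them, held 0 for 15 and lay above 0 for 0.

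**Figure D1:**
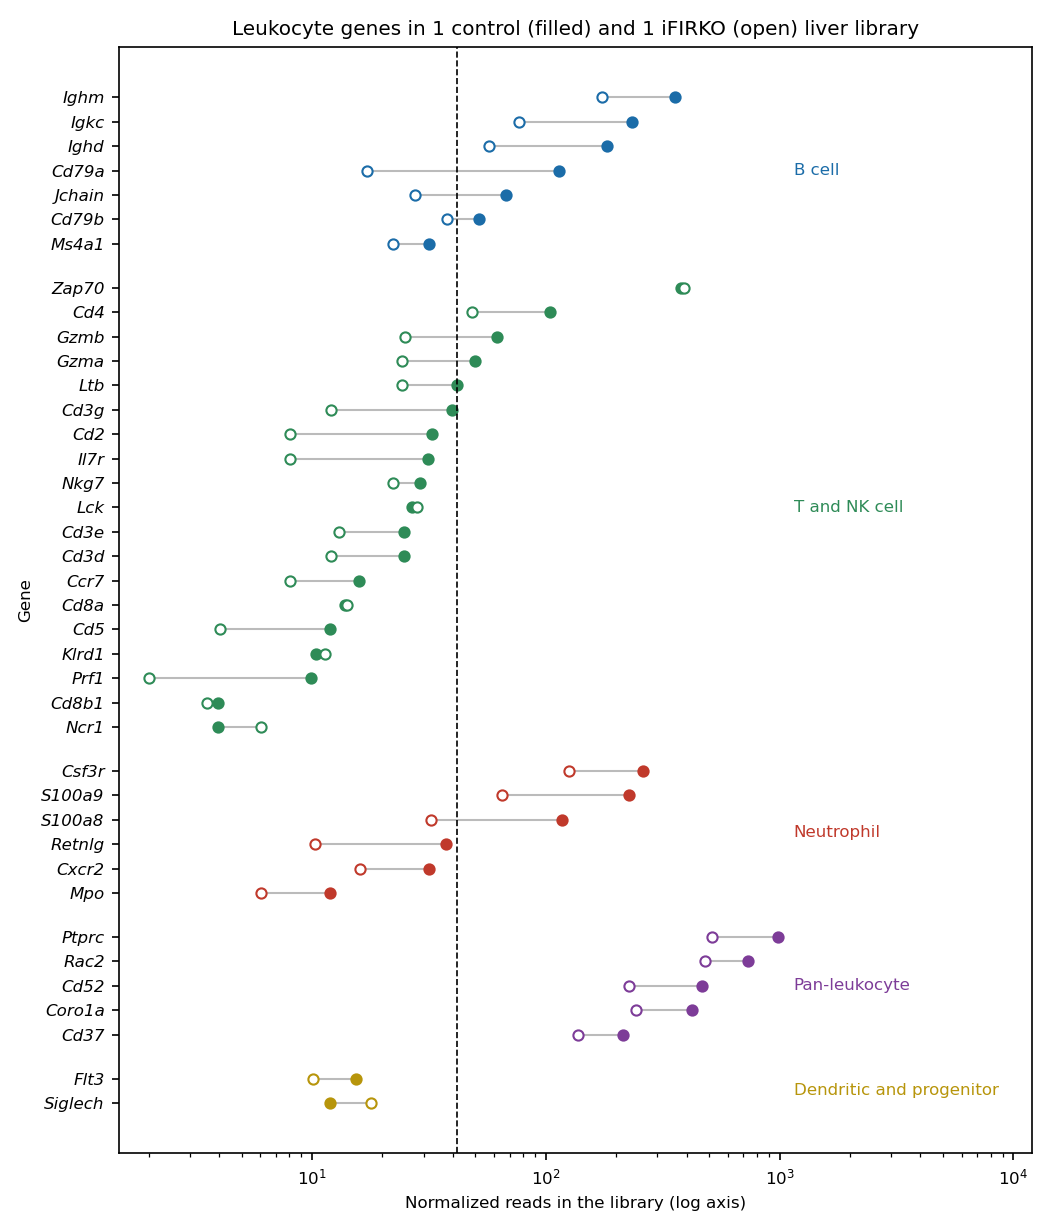
Normalized reads (log axis) of the 39 genes, by class, in the control library (filled points) and the iFIRKO library (open points). The dashed line is the minimum of 41.8 normalized reads. Open points lie to the left for 33 genes, and *Zap70*, at 378 and 389, is the only gene past the minimum with the open point to the right.

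Promoter sequence was set beside these genes, and whether it bears on their lower values was not tested. RefSeq windows of 250 bases before to 50 after a transcript start (GRCm38.p6) were found for 27 of the 39 genes. *Cd79b*, *Ms4a1*, *Ighm*, *Ighd*, *Igkc*, *Cd4*, *Cd8b1*, *Cd2*, *Ccr7*, *Klrd1*, *Rac2* and *Cd52* were not matched. Searched on both strands, the core word of ETS factors, GGAAGT, was in 16 of the 27 genes and in 26.5% of all 27025 genes of the table. The RUNX core TGTGGT was in 10 of the 27 and 18.9% of all genes, the TATA box TATAAA in 3 and 15.7%, and the octamer ATGCAAAT in 0 and 1.97%. Of 5 further words searched, AGGAAG, GAGGAAGT and CAGGAAGT overlap the ETS core and were in 17, 4 and 6 of the 27 genes against 38.4%, 3.69% and 3.86% of all genes. AACCACA overlaps the RUNX core and was in 6 against 6.09%, and the C/EBP palindrome TTGCGCAAT was in 0 against 0.0518%. Genes whose value was not lower carried the words too. These were *Lck*, *Zap70* and *Siglech* for GGAAGT, and the same genes with *Ncr1* for TGTGGT. ETS factors such as PU.1 and RUNX factors are known regulators of blood cell genes, and a match of letters is not a bound site.

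Stretches of 30 bases from 6 of these genes are shown to let the words be seen in place. The matched word is in capitals, and each is written 5′ to 3′ on the strand of the gene. The start is that of a RefSeq transcript, which can differ from the GENCODE positions given below (24897497 against 24897381 for *Cd79a*). The stretches of *Cd79a*, *Il7r*, *S100a8* and *Ptprc* lie inside the GENCODE bounds of their genes. For *Ptprc*, 1 of 2 listed starts was used. *Cd79a* had the lowest log2 fold change of the 39 genes, *Cd3e* and *Il7r* stand for T cells, *Gzmb* for cytotoxic cells, *S100a8* for neutrophils and *Ptprc* for all leukocytes.
Cd79a, chr7:24897431-24897460, plus strand, ETS word 54 bases before the start: cacggctgaacaGGAAGTgaggcggagttt
Cd3e, chr9:45009612-45009641, minus strand, reverse ETS word 18 bases before the start: agtcccctctacACTTCCtgtgtggggttc
Il7r, chr15:9529908-9529937, minus strand, reverse ETS word 49 bases before the start: ccttttgctcagACTTCCtgtttctggcac
Gzmb, chr14:56262351-56262380, minus strand, RUNX word 34 bases before the start: tgtgggttctgcTGTGGTtacttcatgatt
S100a8, chr3:90669029-90669058, plus strand, TATA word 30 bases before the start: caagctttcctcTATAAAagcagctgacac
Ptprc, chr1:138175400-138175429, minus strand, ETS word 112 bases before the start: tacttgaattaaGGAAGTaagaagccattg

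All 7 B cell genes had a lower value in the iFIRKO library. Their sum was 1038 normalized reads in control against 413 in iFIRKO, a log2 ratio of -1.33 (-1.57 to -1.09), or 2.51 times as many reads in control. Of the 6 genes that reached the minimum, 5 were more than 1.5-fold lower, and 3 of these 5 reached it in both libraries. The sum of *Ighm*, *Ighd*, *Igkc* and *Jchain* had a log2 ratio of -1.32 (-1.59 to -1.06). The sum of the surface genes *Cd79a*, *Cd79b* and *Ms4a1* had -1.35 (-1.94 to -0.81), and without *Cd79a*, a sum taken after seeing the data, -0.48 (-1.19 to 0.24).

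*Ighm*, the constant region of IgM heavy chains on chromosome 12 (113418558 to 113422730, minus strand), had 356 normalized reads in control against 174 in iFIRKO. Its log2 fold change was -1.01 (-1.41 to -0.64). *Ighd*, the IgD heavy chain of naive B cells, lies next to it (113406604 to 113416324) and had 183 and 57.3, a log2 fold change of -1.60 (-2.36 to -1.07). Reads of *Ighd* were 0.512 of those of *Ighm* in control against 0.329 in iFIRKO. *Igkc*, the kappa light chain constant region on chromosome 6 (70726435 to 70726966, plus strand), had 234 and 77.1, a log2 fold change of -1.55 (-2.18 to -1.08). *Jchain*, which joins IgM and IgA into polymers in antibody-secreting cells, had 67.6 and 27.6, a log2 fold change of -1.18 (-2.27 to -0.33).

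The CD79 chains form 1 signalling pair, and their genes were not lower to the same degree. *Cd79a* (chromosome 7, 24897381 to 24902197) had 113 normalized reads in control against 17.1 in iFIRKO, a log2 fold change of -2.46 (-4.09 to -1.74). *Cd79b* (chromosome 11, 106311341 to 106314762) had 52.0 and 37.9, a log2 fold change of -0.42 (-1.37 to 0.48), so its difference was within counting error. Their intervals did not overlap. Per kilobase of transcript, *Cd79a* stood at 1.79 times *Cd79b* in control and 0.370 times in iFIRKO. *Ms4a1*, which encodes CD20, was below the minimum with 31.8 and 22.1 normalized reads (interval -1.77 to 0.68).

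Of 31 further genes of B cell identity and receptor signalling, 14 reached the minimum, 9 were more than 1.5-fold lower and 0 higher, with a median log2 fold change of -0.75. Of the 10 that reached it in both libraries, 6 were lower. Among all tested genes 7.28% were lower and 4.46% higher, and 5.57% were lower past the minimum in both libraries. These shares are the background of each list below as well. The lowest were *Derl3*, an endoplasmic reticulum degradation factor of secretory cells (105 and 12.1 normalized reads, -2.75), *Igha*, the IgA constant region (200 and 64.3, -1.58), and *Pax5*, the B cell identity factor (51.7 and 16.1, -1.46). The highest means of both libraries were those of *Xbp1*, which hepatocytes also use (7816 and 7765, -0.01), *Cd74*, the invariant chain of all antigen-presenting cells (4572 and 2780, -0.72), and the kinase *Lyn* (1549 and 1186, -0.38). The switched genes *Ighg1*, *Ighg2b*, *Ighg2c* and *Ighg3*, named after their values were seen, had at most 13.8 normalized reads. Which cells supplied the *Derl3* reads was not tested.

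Rearranged variable segments are parts of the same transcripts as the constant regions, so their reads are not independent of those above. Of 348 rows for immunoglobulin variable segments, 67 were above 0 in control, 37 in iFIRKO and 23 in both, where 0 in the files stands for 1 normalized read or less. Their sum was 262 normalized reads in control against 124 in iFIRKO, a log2 ratio of -1.07 (-1.53 to -0.63). Kappa segments carried most of this, with 175 and 61.3 normalized reads and a log2 ratio of -1.51 (-2.18 to -0.92). Heavy chain segments had 66.0 and 51.3, and their log2 ratio of -0.36 (-1.19 to 0.41) was within counting error. The leading segment was *Iglv1* in control, with 6.72% of the sum, and *Igkv1-117* in iFIRKO, with 9.71%. Many segments are near-identical, so the value of a single segment is uncertain.

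T and NK cell genes were mostly lower by value, and the ratio of their sum depended on 1 gene that was not. The 19 genes summed to 914 normalized reads in control against 663 in iFIRKO, a log2 ratio of -0.46 (-0.67 to -0.26). *Zap70* alone made up 41.4% of this sum in control and 58.6% in iFIRKO. Without it the 18 other genes had 536 and 274 normalized reads, a log2 ratio of -0.97 (-1.28 to -0.67). The value was lower in iFIRKO for 14 of the 19 genes. Only 4 of the 19 reached the minimum, and 3 of them, *Cd4*, *Gzma* and *Gzmb*, were more than 1.5-fold lower. The granzyme genes reached it in control alone, and of the 2 genes that did so in both libraries, *Cd4* was lower and *Zap70* was not.

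*Zap70* (chromosome 1, 36761798 to 36782818, plus strand), the kinase recruited to the triggered T cell receptor, had 378 normalized reads in control against 389 in iFIRKO. Its log2 fold change was 0.04 (-0.26 to 0.34), an interval that does not overlap the one for the sum of the other 12 T cell genes, -1.01 (-1.40 to -0.65). Per kilobase, *Zap70* stood at 168 in control against 173 in iFIRKO, 13.8 and 13.4 times the level of *Lck*, the kinase that acts before it. No exon of another annotated gene overlaps *Zap70* in GENCODE M21, and the next T or NK cell gene per kilobase in control was *Gzma* at 56.6. Which cells of the liver supplied the *Zap70* reads was not tested.

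**Figure D2:**
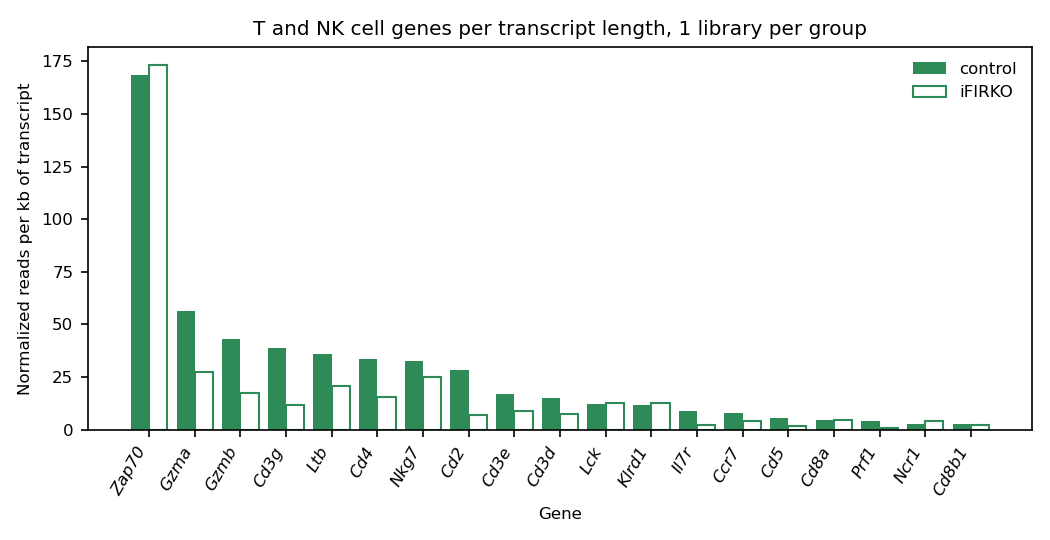
Normalized reads per kilobase of transcript for the 19 T and NK cell genes in the control library (filled bars) and the iFIRKO library (open bars), ordered by control. *Zap70* stands at 168 and 173, above every other gene, while the next 9 genes in order are all lower in iFIRKO.

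The CD3 chains are the defining genes of T cells and lie together on chromosome 9. *Cd3g* had 39.7 normalized reads in control against 12.1 in iFIRKO, *Cd3e* 24.8 and 13.1, and *Cd3d* 24.8 and 12.1. All were below the minimum, and their sum had a log2 ratio of -1.26 (-2.18 to -0.49) on an estimated 45.0 and 18.5 read pairs. *Cd2*, an adhesion receptor (32.6 and 8.05, log2 fold change -1.59), and *Il7r*, the receptor for the survival factor IL-7 (31.4 and 8.05, -1.54), were also below the minimum, with intervals below 0.

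*Cd4*, the coreceptor of helper T cells, had 104 normalized reads in control against 48.3 in iFIRKO, a log2 fold change of -1.04 (-1.86 to -0.37). *Cd8a*, the coreceptor of cytotoxic T cells, had 13.9 and 14.1, on 7 read pairs in each library, and its partner *Cd8b1* had 3.97 and 3.57. At this depth no difference in the CD8 genes was detectable in either direction. *Lck* had 26.7 and 28.2 (interval -1.07 to 1.33). *Cd5*, a brake on receptor signalling, had 11.9 and 4.03 normalized reads. *Ccr7*, the lymph node homing receptor, had 15.9 and 8.05 (interval -3.16 to 0.92), and *Ltb*, a lymphotoxin that B cells make too, had 41.7 and 24.2 (-1.95 to 0.30).

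The 6 NK and cytotoxic genes summed to 164 normalized reads in control against 90.6 in iFIRKO, a log2 ratio of -0.86 (-1.42 to -0.32). The granzyme genes were the most abundant and were lower. *Gzmb* had 61.6 and 24.9, a log2 fold change of -1.18 (-2.45 to -0.35). *Gzma* had 49.7 and 24.2, a log2 fold change of -0.93 (-2.17 to 0.01), at the edge of counting error. The perforin gene *Prf1* had 9.94 and 2.01 normalized reads, which is 5 read pairs and 1. The granule gene *Nkg7* had 28.9 and 22.1 (-1.70 to 0.79). The receptor genes were not lower, with 10.4 and 11.3 for *Klrd1* and 3.97 and 6.04 for *Ncr1*, on 2 to 6 read pairs per library.

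Further T cell and NK cell genes were sparse. Of 26 genes of T cell identity and signalling, 8 reached the minimum, 4 were more than 1.5-fold lower and 0 higher, with a median log2 fold change of -0.55. Only 2 of the 6 past it in both libraries were lower. The adaptor *Lcp2* had 483 and 313 normalized reads (-0.62) and *Thy1* 63.9 and 33.2 (-0.86), while *Tcf7* (148 and 138, -0.09) and *S1pr1* (2503 and 2322, -0.11), which endothelium also expresses, were near level. The constant regions *Trac*, with 31.2 and 18.2, and *Trbc2*, with 41.9 and 26.2, were named after their values were seen and had intervals that hold 0. Of 23 further NK genes, only *Klrk1* (96.7 and 63.4, -0.58) and the chemokine gene *Ccl5* (45.2 and 28.3, -0.61) reached the minimum, *Ccl5* in control alone. The 170 rows of T cell receptor variable segments held 26.3 normalized reads in control against 19.2 in iFIRKO, too few to compare (interval -1.71 to 0.94).

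Neutrophil genes had the lowest sum of the 5 classes relative to control by value, though their interval overlapped that of the B cell genes (-1.57 to -1.09). The 6 genes had 685 normalized reads in control against 255 in iFIRKO, a log2 ratio of -1.43 (-1.73 to -1.13), or 2.69 times as many reads in control, and all 6 had a lower value in iFIRKO. *S100a8* and *S100a9*, whose proteins pair as calprotectin, lie close together on chromosome 3. *S100a9* had 228 and 64.7 normalized reads, a log2 fold change of -1.75 (-2.44 to -1.25). *S100a8* had 117 and 32.2, a log2 fold change of -1.74 (-2.76 to -1.05). Reads of *S100a8* were 0.515 of those of *S100a9* in control against 0.497 in iFIRKO, so the pair kept nearly 1 ratio between the libraries.

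*Csf3r*, the receptor for granulocyte colony-stimulating factor, which monocytes express as well, had 259 and 126 normalized reads, a log2 fold change of -1.02 (-1.52 to -0.61). *Retnlg*, a resistin-like gene of neutrophils, had 37.3 and 10.3 (-1.52, interval -3.68 to -0.44). *Cxcr2*, the receptor through which neutrophils follow chemokines such as CXCL1, had 31.8 and 16.1 (-0.83, interval -2.41 to 0.33). *Mpo*, the myeloperoxidase of early granules, had 11.9 and 6.04, or 6 and 3 read pairs. Without the S100 genes the sum of the other 4 had a log2 ratio of -1.11 (-1.50 to -0.70).

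Of 24 further neutrophil genes, 11 reached the minimum, 7 were more than 1.5-fold lower and 0 higher, with a median log2 fold change of -0.66. Of the 9 past it in both libraries, 5 were lower. By mean level these were led by *Wfdc21* (11347 and 8531 normalized reads, -0.41), *Lcn2*, which hepatocytes also make (6554 and 8316, 0.34), and *Prtn3*, annotated as a neutrophil granule protease (2168 and 839, -1.37). *Fpr2*, a receptor for bacterial peptides (203 and 81.2, -1.28), and *Itgam*, an integrin shared with macrophages (182 and 80.8 in the larger of its 2 rows, -1.13), were among the lowest. Several other genes of this list, named after their values were seen, had few or no reads. *Ly6g* had 1.81 and 3.27 normalized reads, *Ltf* 3.97 and 2.01, *Camp* 11.9 and 6.04 and *Elane* 27.1 and 11.9, and *Ctsg* was listed at 0 in both libraries. The level of *Prtn3* was thus far above that of the other granule protease genes. Which cells supplied the *Prtn3* and *Wfdc21* reads was not tested.

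The 5 pan-leukocyte genes all reached the minimum in both libraries. Their sum was 2819 normalized reads in control against 1601 in iFIRKO, a log2 ratio of -0.82 (-0.94 to -0.69), and all 5 were more than 1.5-fold lower with intervals below 0. *Ptprc*, which encodes the leukocyte phosphatase CD45, had 980 and 514, a log2 fold change of -0.93 (-1.16 to -0.71). *Cd52*, a small surface glycoprotein, had 466 and 228, a log2 fold change of -1.02 (-1.37 to -0.70). *Coro1a*, an actin regulator of leukocytes, had 424 and 244, a log2 fold change of -0.79 (-1.13 to -0.47).

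*Rac2*, the blood cell member of the Rac GTPases, had 736 and 479 normalized reads, a log2 fold change of -0.62 (-0.86 to -0.38), and *Cd37*, a tetraspanin prominent on B cells, had 213 and 137, -0.62 (-1.10 to -0.18). Both lay close to the 1.5-fold line. Per kilobase, *Cd52* was the most abundant of the 39 genes in either library, at 906 and 443. Exons of *Cd52* share 14.5% of their bases with *Crybg2* on the opposite strand, which had 41.1 and 51.2 normalized reads. Whether strand was used in counting is not given, and reads there could belong to either gene. Of 32 further pan-leukocyte genes, 31 reached the minimum, 14 were more than 1.5-fold lower and 0 higher, with a median log2 fold change of -0.55. Of the 28 past it in both libraries, 12 were lower. The lowest were *Selplg*, the selectin ligand (262 and 80.5, -1.65), *Sash3* (140 and 52.3, -1.35) and *Evi2a* (89.3 and 33.6, -1.31), while *Tmsb4x* (7500 and 4383, -0.77), *Lcp1* (3981 and 3708, -0.10) and *Ptpn6* (1323 and 1273, -0.05) had the highest mean of both libraries.

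The dendritic and progenitor genes were both below the minimum. *Siglech*, a receptor of plasmacytoid dendritic cells, had 11.9 normalized reads in control against 17.9 in iFIRKO (interval -1.05 to 2.38). *Flt3*, the receptor of dendritic cell progenitors, had 15.4 and 10.1 (-2.62 to 1.13). Their sum, 27.4 and 28.0, had a log2 ratio of 0.03 with an interval from -1.16 to 1.20, too wide to set it apart from the T and NK cell sum (-0.46) or the pan-leukocyte sum (-0.82). The B cell and neutrophil intervals overlap it as well.

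**Figure D3:**
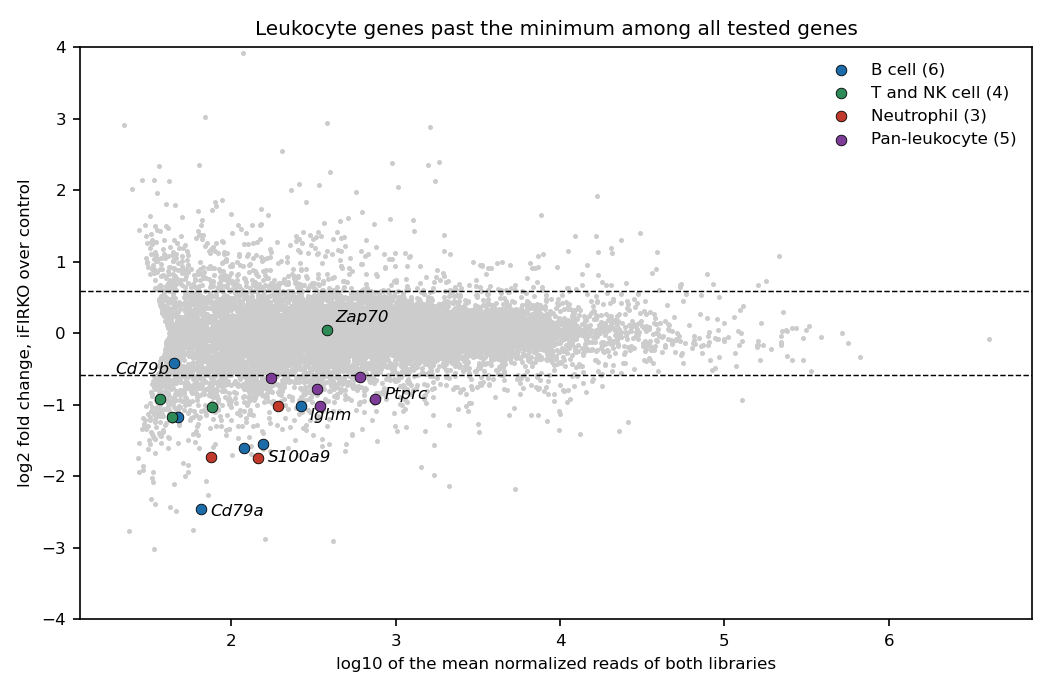
Log2 fold change against log10 of the mean normalized reads for the 13400 tested genes (grey, 2 of them beyond the axis limit of 4) and the 18 leukocyte genes past the minimum (coloured by class). Dashed lines mark 1.5-fold. All coloured points except *Zap70* and *Cd79b* lie below the lower line.

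Other cells of the liver were not shifted alike. Macrophages also use *Ptprc*, *Coro1a* and *Rac2*, though none of the 39 genes is in the macrophage list. The 13 Kupffer cell and macrophage genes summed to 49382 normalized reads in control against 32202 in iFIRKO, a log2 ratio of -0.62 (-0.65 to -0.59), and 9 of 13 were more than 1.5-fold lower. The highest means of both libraries were those of *Clec4f* (8728 and 5677) and *Cd5l* (9323 and 5401). Their sum was many times that of the 39 genes, and the part of macrophage RNA in the pan-leukocyte values was not tested. The endothelial list had a log2 ratio of -0.45, the platelet list -0.47 (-0.83 to -0.11) and the cholangiocyte list -0.21, while the stellate list was at 0.06 and the hepatocyte list, with 9 of 10 symbols found, at -0.09. Intervals of the sums of the 7 B cell and 6 neutrophil genes lay wholly below that of the Kupffer cell sum. Those of the further B cell (-0.32, -0.37 to -0.27) and neutrophil (-0.21, -0.25 to -0.17) lists lay above it. By mean level these lists were led by *Xbp1* and *Wfdc21*. Their median log2 fold changes, -0.75 and -0.66, were near the Kupffer cell median of -0.62. The interval of the T and NK cell sum (-0.46, -0.67 to -0.26) overlapped that of the Kupffer cell sum, and its ratio was near those of the endothelial and platelet lists. Without *Zap70* the T and NK cell interval (-1.28 to -0.67) lay below that of the Kupffer cell sum.

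Red cell genes went the other way. The 9 erythroid genes summed to 13639 and 27103 normalized reads, a log2 ratio of 0.99 (0.95 to 1.03), with 6 of 8 tested genes higher and 2 lower. Blood left in the liver carries red cells and leukocytes together, and the part of blood content in the leukocyte values was not tested. The adipocyte list of 5 genes was at 0 in control, and *Cfd*, with 8.05 normalized reads in iFIRKO, was its highest value.

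**Figure D4:**
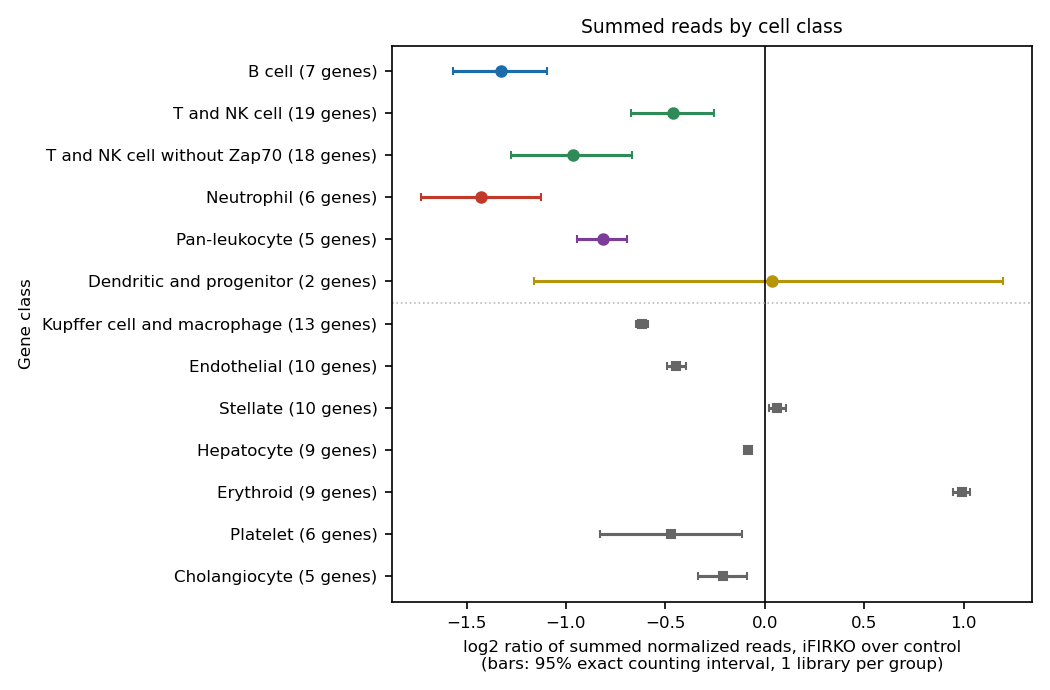
Log2 ratio of summed normalized reads, iFIRKO over control, for the 5 leukocyte classes, for T and NK cell genes without *Zap70* (coloured circles), and for markers of other liver cells (grey squares), with bars for 95% exact counting intervals. The B cell (-1.33) and neutrophil (-1.43) sums are lowest, the dendritic and progenitor interval spans 0, and the erythroid sum (0.99) lies on the other side.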

How the data were processed

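TruSeq stranded mRNA libraries of liver RNA were sequenced on an Illumina NovaSeq. The deposited values are log2 normalized reads by gene symbol, not divided by length, with values of 1 or less listed as 0. The labels name mm10. The aligner, the counter and the scaling are not given in the sources used here. These were unlogged for all sums and folds. The commonest low value, 1.99 normalized reads in control against 2.01 in iFIRKO, was taken as 1 read pair, and 43.8% and 44.2% of values under 50 were then whole pairs within 0.01, so pairs and intervals are estimates.

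The 1.5-fold threshold is that of the study. Members and lists were chosen with earlier results of these data known. Every member is named, with up to 3 genes of each further list by level and up to 3 by fold among tested genes, up to 2 by level for other cells, and *Insr*. A gene that this rule names is not reported here. Positions, overlaps and lengths (spliced length of the longest transcript with the best APPRIS rank) came from GENCODE M21 on GRCm38. With 1 library per group no p-value was computed. On simulated libraries with a true fold of 2, the call was right for 197 of 200 altered genes among 13288. In these libraries 261 of 13088 unaltered genes were called, and 958 of 1000 intervals of class sums held the true ratio. The simulation held counting noise on whole read pairs only, so its rates leave out variation between mice and do not carry over to these 2 livers. Alternatives were other scalings, pseudocounts, minimums, a fold of 2 and sums without leading members. Intervals used scipy 1.17.1, tables pandas 2.3.3 and numpy 2.4.6, and plots matplotlib 3.10.9, all in Python 3.11.15.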

Additional observations from a re-analysis of the deposited data

How the results depend on the processing

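All class sums kept their direction under median-ratio scaling, trimmed mean of M values scaling and totals without the 20 most abundant genes, which moved every log2 ratio by -0.01 to 0.00. The T and NK cell log2 ratio of -0.46 became -0.97 without *Zap70* and -0.86 for the NK and cytotoxic genes alone, and the neutrophil log2 ratio of -1.43 became -1.11 without *S100a8* and *S100a9*. That of the B cell surface genes, -1.35, became -0.48 without *Cd79a*, a setting chosen after seeing the data. The number of the 39 genes that were more than 1.5-fold lower was 28 without a minimum, where all 39 enter, and 9 of 10 with a minimum CPM of 5. It was 11 of 12 with the minimum in both libraries, 11 of 18 at a fold above 2 and 13 of 18 with a pseudocount of a CPM of 1. A minimum on the mean of both libraries, also chosen after seeing the data, gave 15 of 17, and the remaining settings 16 of 18. None was more than 1.5-fold higher in any setting run. The plain ratio was run only on the 18 genes that reached the minimum, and *Siglech*, below it, had a plain fold of 1.505. Over all 13400 tested genes, 576 were lower and 371 higher with a pseudocount of a CPM of 1, and 267 and 209 at a fold above 2. Without a minimum 2620 and 1960 of 21768 genes were, and with a minimum CPM of 5, 440 and 288 of 10145. The minimum in both libraries gave 711 and 437 of 12765, and that on the mean 824 and 522 of 13073. Of 170 values of single members under other scalings and pseudocounts, 1 left its interval, that of *Cd79a*, at -1.40 with a pseudocount of a CPM of 1. The dendritic and progenitor sum has no value for members past the minimum, since both are below it. No paired analysis was possible because the labels give 1 library to a group. Genes under the minimum rest on at most 21 read pairs per library.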

Other observations

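Genes that guide leukocytes to tissue were measured apart from the leukocyte genes themselves. Of 24 homing chemokines, receptors and adhesion genes, 13 reached the minimum, 6 were more than 1.5-fold lower and 0 higher, with a median log2 fold change of -0.57. Of the 12 past it in both libraries, 5 were lower, against 5.57% of all genes past it in both. *Cxcl1*, a ligand of the neutrophil receptor *Cxcr2*, had 3436 normalized reads in control against 778 in iFIRKO, a log2 fold change of -2.14 (-2.31 to -1.98). The interferon-induced T cell chemokine genes *Cxcl9* (1593 and 880, -0.85) and *Cxcl10* (407 and 207, -0.96) were lower as well, as was the monocyte receptor gene *Ccr2* (236 and 74.2, -1.62). *Cxcl12*, with the highest mean of the list, was near level at 12439 and 11598 (-0.10).

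Of 14 further dendritic cell genes, 9 reached the minimum, 4 were more than 1.5-fold lower and 1 higher, and of the 8 past it in both libraries 3 were lower. The integrin gene *Itgax* had 44.5 and 24.6 normalized reads (-0.76) and *Batf3*, a factor of conventional dendritic cells, had 86.4 and 52.6 (-0.67). *Bst2* (8250 and 6661, -0.31), *Tcf4* (615 and 491, -0.32) and *Irf8* (470 and 375, -0.32) were within 1.5-fold. *Ly6d*, listed as a marker of B cell and plasmacytoid dendritic cell precursors, was higher, with 136 and 663, a log2 fold change of 2.25 (1.91 to 2.69). The cells that supplied these *Ly6d* reads were not tested.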
